A study of Mus musculus with 24 samples.

Results

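The genes described here are 8 components of the IGF1 axis, chosen by name: the ligand *Igf1*, its receptor *Igf1r*, and the binding proteins *Igfbp2*, *Igfbp3*, *Igfbp4*, *Igfbp5*, *Igfbp6* and *Igfbp7*. They are 8 of the 55471 genes counted by RNA-seq in 24 libraries of immortalized 3T3 mouse embryonic fibroblasts (MEFs). The libraries formed 8 groups of 3, namely wild-type MEFs, *Lkb1*-/- MEFs (lacking the kinase LKB1, the product of *Stk11*) and the *Lkb1*-/-/*Crtc2*-/- lines A1 and A2, each without treatment or after 6 hours of IL-1β. The clones lack the CREB coactivator CRTC2 in addition to LKB1, and each was grown from a single CRISPR-edited cell of the *Lkb1*-/- line. Wild-type and *Lkb1*-/- MEFs are 1 line each, so that genotype and line cannot be told apart between them, and the double-knockout genotype is 2 clones of the same parent line. Nothing says that the 3 libraries of a group came from separate cultures, so every p-value measures only the spread between these libraries.

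IGF1 is a secreted growth factor that activates the receptor tyrosine kinase IGF1R and, through insulin receptor substrates, the PI3K-AKT pathway. In serum and tissue most IGF1 is held by IGF binding proteins, which carry it, prolong its life or keep it from the receptor, and which also have actions of their own. Proteases cut the binding proteins and free the ligand, and pappalysin 1 (*Pappa*) is the protease of IGFBP4, held in check by stanniocalcins. LKB1 activates salt-inducible kinases, which keep CRTC2 out of the nucleus.

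The libraries held 38842901 to 48594394 counts on genes (median 42431965). Of all genes, 17522 passed the filter on low counts and were tested, and values are given as CPM, counts scaled to a common library size after TMM. Without treatment *Stk11* fell from 86.0 ± 1.68 CPM in the wild type to 17.3 ± 1.24 CPM in *Lkb1*-/- MEFs (SD, n = 3), so reads on the gene remained. *Crtc2* went from 81.1 ± 1.80 CPM in *Lkb1*-/- MEFs to 42.9 ± 2.11 in clone A1 and 49.8 ± 0.864 in clone A2, and counts on an edited gene do not show whether a protein is made. Of 10 fibroblast markers, 7 or 8 were above 1 CPM in every group, and *Thy1* and *Lum* were under 1 CPM in all. Markers of myogenic cells summed to at most 1.21 CPM in any library. Those of epithelial cells summed to 1.4998 to 2.93 CPM in wild-type libraries and to 0.110 to 1.26 CPM in the others, where only *Krt19* in the wild type was above 1 CPM and *Epcam* was below it. Those of endothelial cells summed to 0.370 to 0.678 CPM in wild-type libraries and to 2.06 to 3.85 CPM in the others, which was mostly *Kdr*, with *Pecam1* and *Cdh5* under 1 CPM. Those of leukocytes summed to 2.49 to 5.13 CPM in wild-type libraries and to 4.32 to 8.96 CPM in the others, with *Cd68* above 1 CPM in every group, *Csf1r* in every group without LKB1, and *Ptprc*, *Adgre1* and *Itgam* in none. Markers of cartilage cells summed to between 34.9 and 44.0 CPM in wild-type libraries and between 121 and 261 in the others, with *Col2a1* under 1 CPM in every group, and the part of these differences in the results that follow was not tested. Osteoblast markers summed to between 61.2 and 94.3 CPM over all libraries, with *Sp7*, *Bglap* and *Alpl* under 1 CPM in every group. Replicate 1 stood apart from replicates 2 and 3 in all 8 groups, at a chi-square per gene of 42.9 to 122 against 8.29 to 21.1 between replicates 2 and 3, and had 29.9 to 34.4% of its read pairs on no gene, against 26.7 to 30.0% in the others. What sets it apart is not given in the sources used here. In such bulk libraries, fewer cells of a type and less RNA per cell cannot be told apart.

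**Figure D1:**
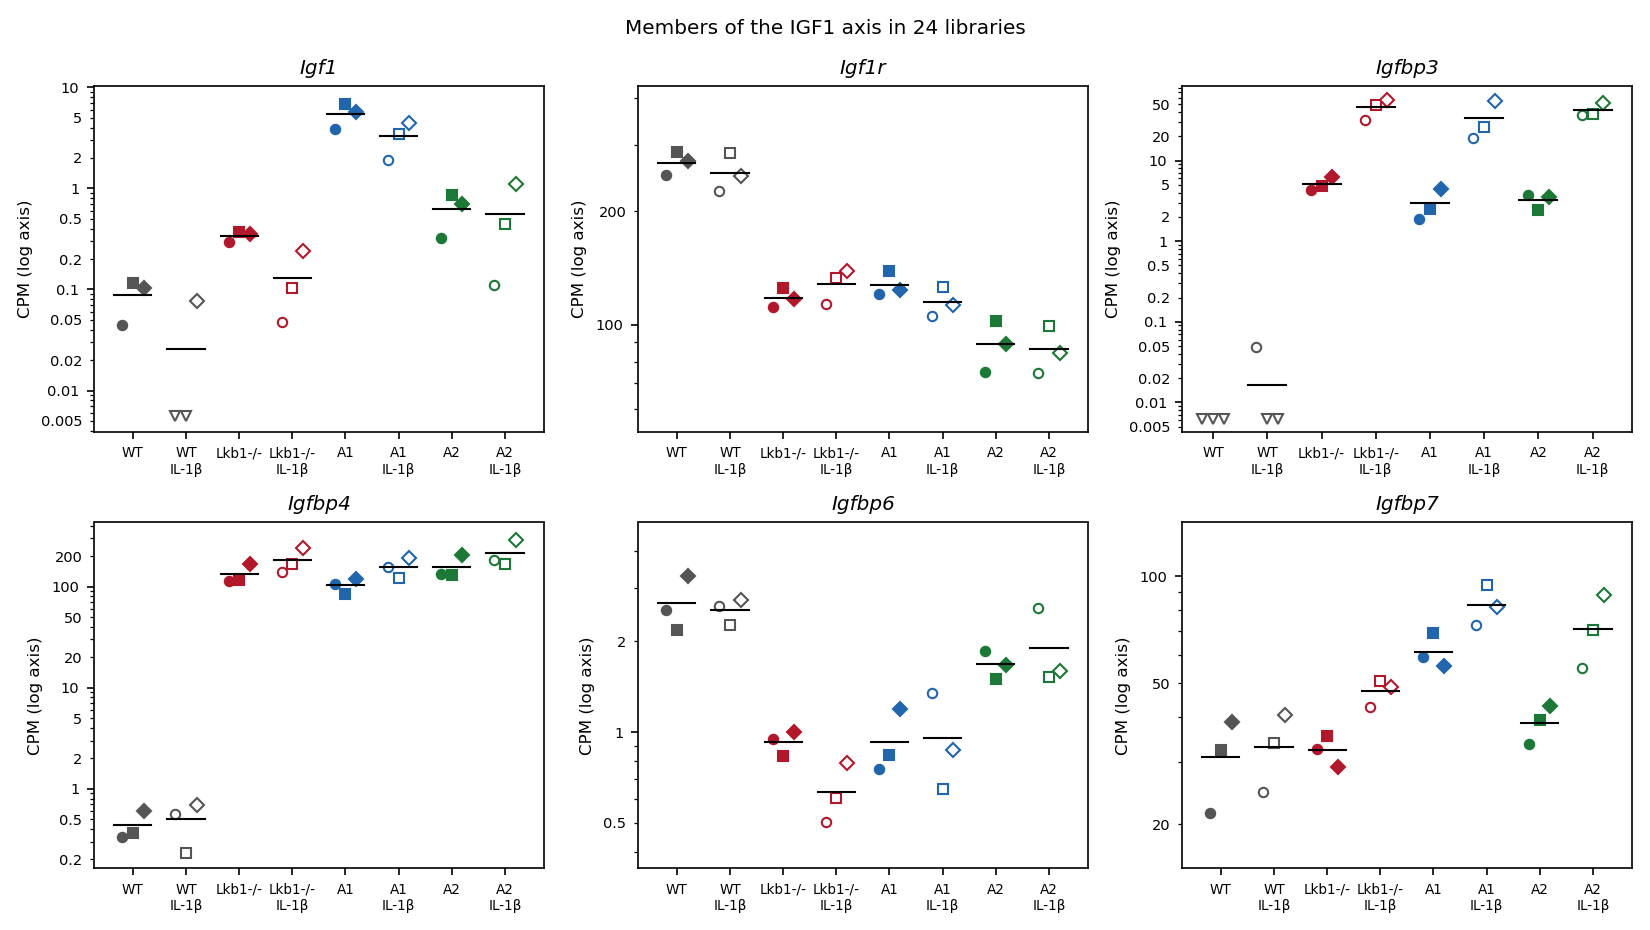
CPM on a log axis of the 6 members that were tested, in all 24 libraries by group. Circles, squares and diamonds are replicates 1, 2 and 3, open symbols are IL-1β libraries, bars are group means, and open triangles at the foot mark libraries with 0 counts. *Igfbp3* and *Igfbp4* were near 0 in wild-type MEFs and higher in every group without LKB1, *Igf1r* was highest in wild-type MEFs, and *Igf1* was highest in clone A1.

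At baseline, *Lkb1*-/- MEFs held *Igfbp4* and *Igfbp7* in similar shares, where the wild-type profile of binding proteins was almost only *Igfbp7*. *Igfbp3* appeared from 0 counts, and the receptor was at less than its wild-type level. Of the 8 members, 6 passed the filter, and *Igfbp2* and *Igfbp5* did not. *Igf1* and *Igfbp3* reached 10 counts in 0 of the 6 wild-type libraries and passed only through the other groups. Between untreated *Lkb1*-/- and wild-type MEFs *Igfbp4* was called higher and *Igf1r* and *Igfbp6* lower at an FDR under 0.05, 3 of the 4 members that reached 10 counts in all 24 libraries, where 55.9% of all tested genes were called. *Igf1* and *Igfbp3*, which were tested only through the groups without LKB1, were higher as well, and the 6 tested members counted in later comparisons include both.

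*Igfbp4* (chromosome 11 of GRCm38, 99041244 to 99054392, plus strand), whose product binds IGF1 and mostly restrains it, had 15, 16 and 23 counts in the untreated wild-type libraries and 4974, 5028 and 7047 counts in the *Lkb1*-/- libraries. Every *Lkb1*-/- library was far above every wild-type library. The mean rose from 0.434 ± 0.144 CPM (SD, n = 3) to 132 ± 30.7 CPM (n = 3), or 8.26 as log2 fold change (SE 0.39, edgeR FDR = 1.32e-13). After IL-1β the means were 0.500 ± 0.240 CPM (wild type) and 182 ± 50.6 CPM (*Lkb1*-/-), or 8.52 as log2 fold change (SE 0.38, edgeR FDR = 7.09e-14).

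*Igfbp3* (chromosome 11, 7206086 to 7213923, minus strand) encodes the main carrier of IGF1 in serum. It had 0 counts in all 3 untreated wild-type libraries and 193, 209 and 263 counts in the untreated *Lkb1*-/- libraries. The groups did not overlap. At a floor of 3 counts per library, which is 0.0714 CPM in untreated wild-type MEFs, the *Lkb1*-/- mean of 5.16 ± 0.984 CPM (SD, n = 3) was at least 72.2-fold higher (edgeR FDR = 4.25e-08). With IL-1β the wild-type libraries had 2, 0 and 0 counts and the *Lkb1*-/- libraries 1333, 2343 and 2335. The ratio of the summed counts was 2788 (exact 95% interval of counting error 772 to 23031), and the edgeR FDR was 6.09e-11.

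*Igfbp3* and *Igfbp4* lie on the same chromosome, 91.8 Mb apart. They are the pair of members that was near 0 in wild-type MEFs and at 1.90 CPM or more in every library of the 6 groups without LKB1. Their 250 bases before the annotated start are shown so that the letters CREB and other factors are known to read can be looked up in them. The sequences are from RefSeq on GRCm38.p6, 5′ to 3′ on the gene's strand, at chr11:7213924-7214173 for *Igfbp3* and at chr11:99040994-99041243 for *Igfbp4*, and capitals mark a match to any of the 5 motifs searched on both strands.
Igfbp3: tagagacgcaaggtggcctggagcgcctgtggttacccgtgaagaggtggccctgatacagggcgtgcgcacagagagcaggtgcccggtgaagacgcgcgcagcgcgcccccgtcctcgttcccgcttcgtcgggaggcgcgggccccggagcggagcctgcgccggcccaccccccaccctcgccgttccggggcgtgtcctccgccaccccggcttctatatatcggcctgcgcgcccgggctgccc
Igfbp4: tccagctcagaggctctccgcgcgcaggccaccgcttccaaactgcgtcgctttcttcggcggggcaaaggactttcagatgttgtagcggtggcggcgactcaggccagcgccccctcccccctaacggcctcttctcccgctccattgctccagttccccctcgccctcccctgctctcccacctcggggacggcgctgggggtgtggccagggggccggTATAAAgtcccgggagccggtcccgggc
The full CREB motif TGACGTCA was in neither window, against 1.55% of the 32851 promoter windows of the same length, and its first part TGACG was in neither, against 17.8%. The AP-1 motif TGANTCA (6.75% of windows) and the NF-κB motif, GGG and TTCC with any 3 bases between (4.65%), were in neither as well. The *Igfbp4* window held TATAAA, 28 bases before the start, as did 12.4% of all windows in any place. The windows were rich in G and C, with 73.2% in *Igfbp3* and 69.2% in *Igfbp4* against a median of 52.4%. These letters describe only these windows.

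*Igf1r* (chromosome 7, 67952827 to 68233668, plus strand) encodes the receptor. Its level was 249, 287 and 272 CPM in the untreated wild-type libraries and 111, 125 and 117 CPM in the *Lkb1*-/- libraries. All 3 wild-type libraries were above all 3 *Lkb1*-/- libraries. It fell from 269 ± 18.7 CPM to 118 ± 6.92 CPM (SD, n = 3 each), or −1.19 as log2 fold change (SE 0.12, edgeR FDR = 2.35e-08), and by 0.98 (log2) with IL-1β (SE 0.12, edgeR FDR = 4.00e-07), where the means were 253 ± 30.4 and 129 ± 13.5 CPM.

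*Igfbp6* (chromosome 15, 102144362 to 102149511, plus strand), known for its preference for IGF2, was low throughout and moved the other way from *Igfbp4*. The untreated wild-type libraries had 2.55, 2.19 and 3.31 CPM and the *Lkb1*-/- libraries 0.951, 0.835 and 1.00 CPM, without overlap. The log2 fold change was −1.53 (SE 0.26, edgeR FDR = 3.79e-05) without treatment and −2.002 (SE 0.27, edgeR FDR = 1.92e-06) with IL-1β, where the *Lkb1*-/- mean was 0.633 ± 0.146 CPM against 2.54 ± 0.247 CPM (SD, n = 3).

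*Igfbp7* (chromosome 5, 77349240 to 77408041, minus strand) encodes a related secreted protein that binds IGFs weakly, and it was at 21.5 CPM or more in all 24 libraries. *Igfbp4* and *Igfbp6* also had at least 10 counts in every library. Its untreated levels were 21.5, 32.4 and 38.8 CPM in wild-type libraries and 32.7, 35.5 and 29.1 CPM in *Lkb1*-/- libraries, which overlapped (log2 fold change 0.07, SE 0.20, edgeR FDR = 0.790). With IL-1β the levels were 24.7, 34.0 and 40.5 CPM in wild-type libraries and 42.7, 50.7 and 48.8 CPM in *Lkb1*-/- libraries, so every *Lkb1*-/- library was higher. In this comparison the 4 members with 10 counts in every library were called, against 57.4% of all genes. *Igfbp3*, tested only through the groups without LKB1, was called as well, and *Igf1* was not. The log2 fold change of *Igfbp7* was 0.52 (SE 0.19, edgeR FDR = 0.0274). That call was lost with unstranded counts (FDR 0.0850) and without wild-type replicate 1 (log2 fold change 0.35) or 2 (0.54) or *Lkb1*-/- replicate 2 (0.47) or 3 (0.48). *Igfbp7* overlaps the end of *Polr2b* and an antisense gene on the other strand.

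*Igf1* itself (chromosome 10, 87858265 to 87937042, plus strand) was close to the detection limit in both lines. The untreated wild-type libraries had 2, 5 and 4 counts and the *Lkb1*-/- libraries 13, 16 and 15 counts, without overlap. The means were 0.0880 ± 0.0379 and 0.341 ± 0.0410 CPM (SD, n = 3), or 1.93 as log2 fold change (SE 0.80, edgeR FDR = 0.0456). Leaving out any 1 of the 6 libraries, wild-type replicates 1 to 3 or *Lkb1*-/- replicates 1 to 3, lost the call (log2 fold change 1.60 to 2.19, FDR 0.0651 to 0.146), as did unstranded counts and edgeR's newer method. With IL-1β the counts were 0, 0 and 3 in wild-type and 2, 5 and 10 in *Lkb1*-/- libraries. The ratio of the sums was 5.26 (exact 95% interval of counting error 1.52 to 28.0). That difference was not called (log2 fold change 2.26, edgeR FDR = 0.116). It was called when replicate number was blocked (FDR 0.0344, with 65.9% of all genes called), by DESeq2 (FDR 0.0352), without the filter on low counts (FDR 0.00685) and without wild-type replicate 3 (FDR 0.0360), and not under the other alternatives. An antisense gene, *Igf1os*, overlaps the start of *Igf1*, and *Stk11* lies on the same chromosome at a distance of 7.73 Mb.

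*Igfbp2* and *Igfbp5*, neighbors that face each other on chromosome 1 with 5457 bases between them (72824503 to 72852474 and 72857932 to 72874884), had at most 17 and 7 counts in any library. *Igfbp2*, a carrier often made by growing or tumor cells, had 8, 3 and 4 counts in untreated and 17, 8 and 7 counts in IL-1β-treated *Lkb1*-/- libraries, against 0, 0, 0 and 0, 1, 0 in the wild type. The untreated mean was at least 1.61-fold higher than in wild-type MEFs at the floor of 3 counts. *Igfbp5*, the binding protein of bone and muscle matrix, had 0 counts in 16 of the 24 libraries, among them all 6 wild-type libraries, and its highest values were 5 and 7 counts in *Lkb1*-/- replicate 3. Neither gene was in the test. In the clones *Igfbp2* had 1, 2 and 1 counts in untreated A1 and 0, 0 and 0 in untreated A2. *Lkb1*-/- MEFs had 3.66 times the summed counts of A1 (exact 95% interval of counting error 1.17 to 15.2) and a mean at least 1.77-fold higher than in A2 at the floor.

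Set against each other per kilobase of exon, which allows levels of different genes to be compared, the binding proteins changed their order. In untreated wild-type MEFs *Igfbp7* made up 90.8 ± 2.34% of the summed level of the 6 binding proteins, *Igfbp6* 8.87 ± 2.30% and *Igfbp4* 0.350 ± 0.0534% (SD, n = 3). In untreated *Lkb1*-/- MEFs *Igfbp4* held 50.1 ± 7.21% and *Igfbp7* 45.6 ± 7.46%, a difference within the replicate spread. Untreated clone A2 was alike, with 50.1 ± 4.22% and 46.2 ± 4.08%, but in untreated clone A1 *Igfbp4* held 30.8 ± 5.56% and *Igfbp7* 66.9 ± 6.11%. The sum itself was between 20.2 and 35.2 CPM per kilobase in the untreated wild-type libraries and between 54.9 and 65.0 in the untreated *Lkb1*-/- libraries, and it did not overlap between the lines. With IL-1β the wild-type sum lay between 22.9 and 36.2, while that of *Lkb1*-/- MEFs reached 78.0 to 113. *Igfbp3* then made up 15.04 ± 1.69% in *Lkb1*-/- MEFs, after 2.76 ± 0.279% without treatment. On the same scale *Igf1r* was at 16.0 ± 1.11 in untreated wild-type and 7.02 ± 0.412 in *Lkb1*-/- MEFs, and *Igf1* was at 0.00889 ± 0.00383 and 0.0344 ± 0.00414. The ligand's level was the lowest of the 3 kinds of component in both lines.

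**Figure D2:**
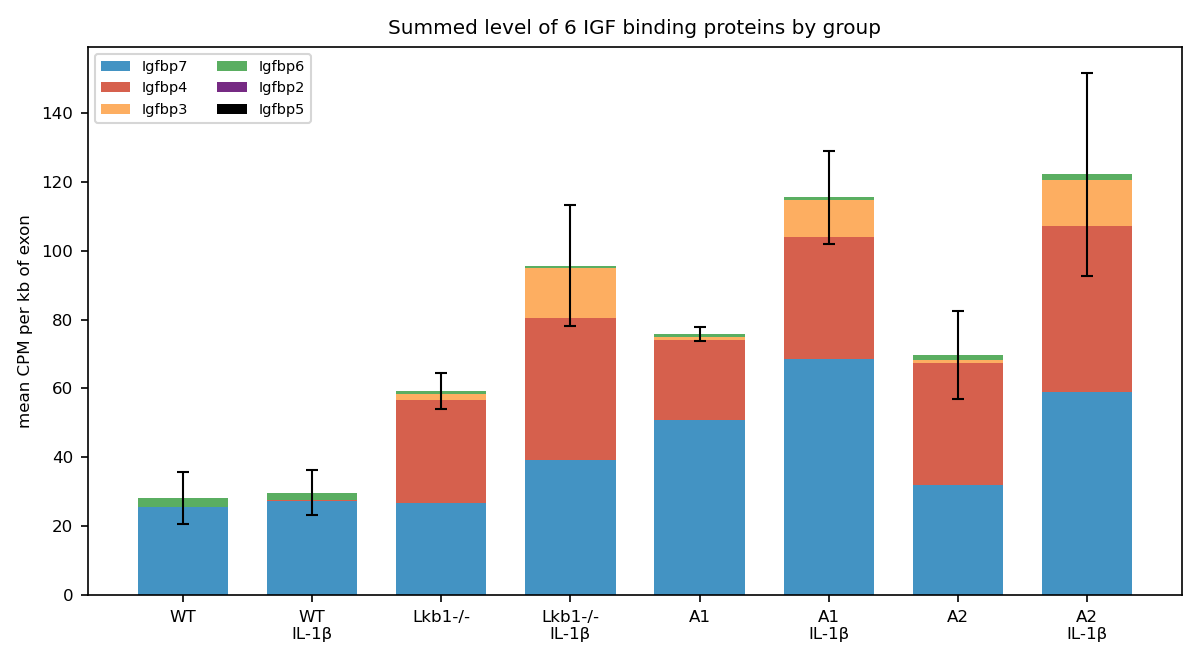
Mean level of the 6 binding proteins in CPM per kilobase of exon, stacked by group. Error bars are the SD of the summed level over the 3 libraries of a group. The wild-type bars are almost only *Igfbp7*, the bars of all other groups hold a large share of *Igfbp4*, and *Igfbp3* is visible mainly with IL-1β.

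In both clones without CRTC2, *Igfbp3* and *Igfbp4* were still far above their wild-type levels. The clones come from the *Lkb1*-/- line, and loss of CRTC2 cannot be told apart from clone identity here. Untreated *Igfbp4* was at 105, 84.9 and 118 CPM in clone A1 and 132, 132 and 204 CPM in clone A2, against 113, 117 and 168 CPM in *Lkb1*-/- libraries. Each clone overlapped with *Lkb1*-/- MEFs, while A2 lay above A1 in every library. The mean was 103 ± 16.7 CPM in A1 (log2 fold change against *Lkb1*-/- −0.37, SE 0.24, edgeR FDR = 0.262) and 156 ± 41.5 CPM in A2 (0.23, SE 0.24, edgeR FDR = 0.502). Against wild-type MEFs *Igfbp4* was higher by 7.90 (log2) in A1 (SE 0.39, edgeR FDR = 2.57e-13) and by 8.50 in A2 (SE 0.39, edgeR FDR = 7.41e-14).

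*Igfbp3* had 78, 104 and 192 counts in untreated A1 libraries and 184, 105 and 160 counts in untreated A2 libraries, with means of 2.94 ± 1.31 and 3.22 ± 0.690 CPM (SD, n = 3), at least 41.1-fold and at least 45.1-fold above the wild-type floor. Compared with *Lkb1*-/- MEFs, the log2 fold change was −0.81 in A1 (SE 0.37, edgeR FDR = 0.0984) and −0.68 in A2 (SE 0.36, edgeR FDR = 0.172). All A2 libraries were below all *Lkb1*-/- libraries, and A1 replicate 3 was within their range. Without that library the A1 value was −1.23 and was called (FDR 0.0274). With replicate numbers blocked, for which the same-numbered libraries of A2 and *Lkb1*-/- MEFs deviated together, the A2 value was called lower as well (log2 fold change −0.65, FDR 0.0250), and so was *Igfbp4* higher (0.23, FDR 0.0408).

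*Igf1* was higher in clone A1 than in every other line. Untreated A1 libraries had 3.90, 6.86 and 5.70 CPM, from 160, 286 and 248 counts, and the highest library outside clone A1 was at 1.10 CPM. The 4 adipocyte markers also summed higher in A1, to between 14.8 and 20.3 CPM in its 6 libraries against 7.83 to 13.1 CPM in all others, with *Adipoq* and *Plin1* under 1 CPM in every group, and their part in the *Igf1* difference was not tested. The log2 fold change of A1 against *Lkb1*-/- MEFs was 3.999 (SE 0.56, edgeR FDR = 9.61e-06). A2 libraries had 0.322, 0.857 and 0.704 CPM, overlapping with *Lkb1*-/- libraries, and the difference was not called (log2 fold change 0.87, SE 0.59, edgeR FDR = 0.292). Between the clones *Igf1* was lower in A2 by 3.13 (log2, SE 0.52, edgeR FDR = 7.80e-05) without treatment and by 2.58 (SE 0.52, edgeR FDR = 6.74e-04) with IL-1β. In the comparison of A1 with *Lkb1*-/- MEFs 2 of the 6 tested members were called without treatment, *Igf1* and *Igfbp7*, against 35.3% of all genes, and the same 2 with IL-1β, against 36.7%. With the block 4 were called with IL-1β, against 49.1%.

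*Igfbp7* in untreated A1 was at 59.1, 69.1 and 55.7 CPM, above every *Lkb1*-/- library, and rose by 0.92 (log2, SE 0.20, edgeR FDR = 8.60e-04). In untreated A2 it was at 33.6, 39.3 and 43.1 CPM, which overlapped with *Lkb1*-/- MEFs (log2 fold change 0.25, SE 0.19, edgeR FDR = 0.355). A2 was lower than A1 by 0.67 (SE 0.19, edgeR FDR = 0.0114), and without A1 replicate 2 this was −0.57 (FDR 0.0568). With IL-1β the clones were at 82.97 ± 10.9 and 71.2 ± 16.6 CPM (SD, n = 3), against 47.4 ± 4.14 CPM in *Lkb1*-/- MEFs. Those differences were called in A1 (log2 fold change 0.81, SE 0.19, edgeR FDR = 0.00234) and in A2 (0.59, SE 0.19, edgeR FDR = 0.0235), the latter not without A2 replicate 3 (0.40, FDR 0.148) or *Lkb1*-/- replicate 1 (0.51, FDR 0.0876).

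Clone A2 differed from *Lkb1*-/- MEFs in the receptor and in *Igfbp6*, 2 of the 6 tested members without treatment, against 32.3% of all genes, and 4 with the block, against 45.9%. *Igf1r* was at 75.2, 103 and 88.9 CPM in untreated A2 libraries, all below the *Lkb1*-/- libraries, and fell by 0.41 (log2, SE 0.12, edgeR FDR = 0.0115). The call was lost without A2 replicate 1 (−0.29, FDR 0.0665) or *Lkb1*-/- replicate 2 (−0.36, FDR 0.0524). With IL-1β the fall was 0.58 (SE 0.12, edgeR FDR = 6.95e-04). *Igf1r* in A1 was at 128 ± 9.90 CPM untreated and 115 ± 10.4 CPM with IL-1β, and was not called against *Lkb1*-/- MEFs (log2 fold change 0.12 and −0.16, SE 0.12 each, edgeR FDR = 0.489 and 0.317). With the block the IL-1β value was called (FDR 0.0172).

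*Igfbp6* in untreated A2 was at 1.85, 1.505 and 1.67 CPM, between the wild-type and the *Lkb1*-/- libraries and apart from both. It rose against *Lkb1*-/- MEFs by 0.85 (log2, SE 0.26, edgeR FDR = 0.0167), not without *Lkb1*-/- replicate 2 (0.78, FDR 0.0668), and remained lower than in wild-type MEFs by 0.67 (SE 0.25, edgeR FDR = 0.0244), not without A2 replicate 2 (−0.64) or wild-type replicate 3 (−0.53). With IL-1β the rise against *Lkb1*-/- MEFs was 1.59 (SE 0.27, edgeR FDR = 1.31e-04). A1 was at 0.930 ± 0.233 CPM untreated, beside 0.929 ± 0.0845 CPM in *Lkb1*-/- MEFs (log2 fold change 0.01, SE 0.27, edgeR FDR = 0.992). With IL-1β the A1 value of 0.59 was not called (SE 0.28, edgeR FDR = 0.113), except without A1 replicate 2 (0.81, FDR 0.0400).

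With IL-1β 4 of the 6 tested members were called between A2 and *Lkb1*-/- MEFs, *Igf1*, *Igfbp6* and *Igfbp7* higher and *Igf1r* lower, against 32.8% of all genes (46.6% with the block). *Igf1* there had 5, 21 and 45 counts in A2 and 2, 5 and 10 counts in *Lkb1*-/- libraries, which overlapped. The log2 fold change of 2.05 (SE 0.70, edgeR FDR = 0.0281) was 1.09 without A2 replicate 3 (FDR 0.272), 1.67 without *Lkb1*-/- replicate 1 (FDR 0.108) and 1.90 without *Lkb1*-/- replicate 2 (FDR 0.0935). The call was also lost with edgeR's newer method (FDR 0.0565) and in a fit of the compared groups (FDR 0.117). In the same treatment *Igfbp3* was at 33.4 ± 18.9 CPM in A1 and 41.8 ± 7.98 CPM in A2, beside 45.6 ± 12.3 CPM in *Lkb1*-/- MEFs. Neither difference was called (log2 fold change −0.45, SE 0.32, edgeR FDR = 0.302 in A1 and −0.12, SE 0.32, edgeR FDR = 0.811 in A2), whereas with the block the A1 value was (−0.53, FDR 0.0170). Without A1 replicate 3 it was −0.98 (FDR 0.0127).

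Directly compared, the clones differed in 4 of the 6 tested members without treatment, against 32.5% of all genes, and in 3 with IL-1β, against 30.7%. *Igf1r* was lower in A2 by 0.52 (log2, SE 0.12, edgeR FDR = 0.00172) and by 0.42 with IL-1β (SE 0.12, edgeR FDR = 0.0102), the latter not without A1 replicate 2 (−0.35, FDR 0.0617). *Igfbp6* was higher in A2 by 0.85 (SE 0.26, edgeR FDR = 0.0172) and by 0.99 with IL-1β (SE 0.26, edgeR FDR = 0.00633), the former not without A1 replicate 1 (0.72) or 2 (0.78) or A2 replicate 1 (0.76) and the latter not in a fit of the compared groups (FDR 0.0825). Untreated *Igfbp4* was 0.60 higher in A2 without a call (SE 0.24, edgeR FDR = 0.0606), although no libraries overlapped, and it was called without A2 replicate 1 (FDR 0.0350) or 2 (FDR 0.0421), with upper quartile scaling (FDR 0.0412), without a filter (FDR 3.00e-11), with 10 counts in every library (FDR 0.0445) and in a fit of the compared groups (FDR 0.0412). With IL-1β and the block, where 44.4% of all genes were called, *Igfbp4* was higher in A2 (0.43, FDR 3.80e-04), and without A1 replicate 3 so was *Igfbp3* (0.88, FDR 0.0270).

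**Figure D3:**
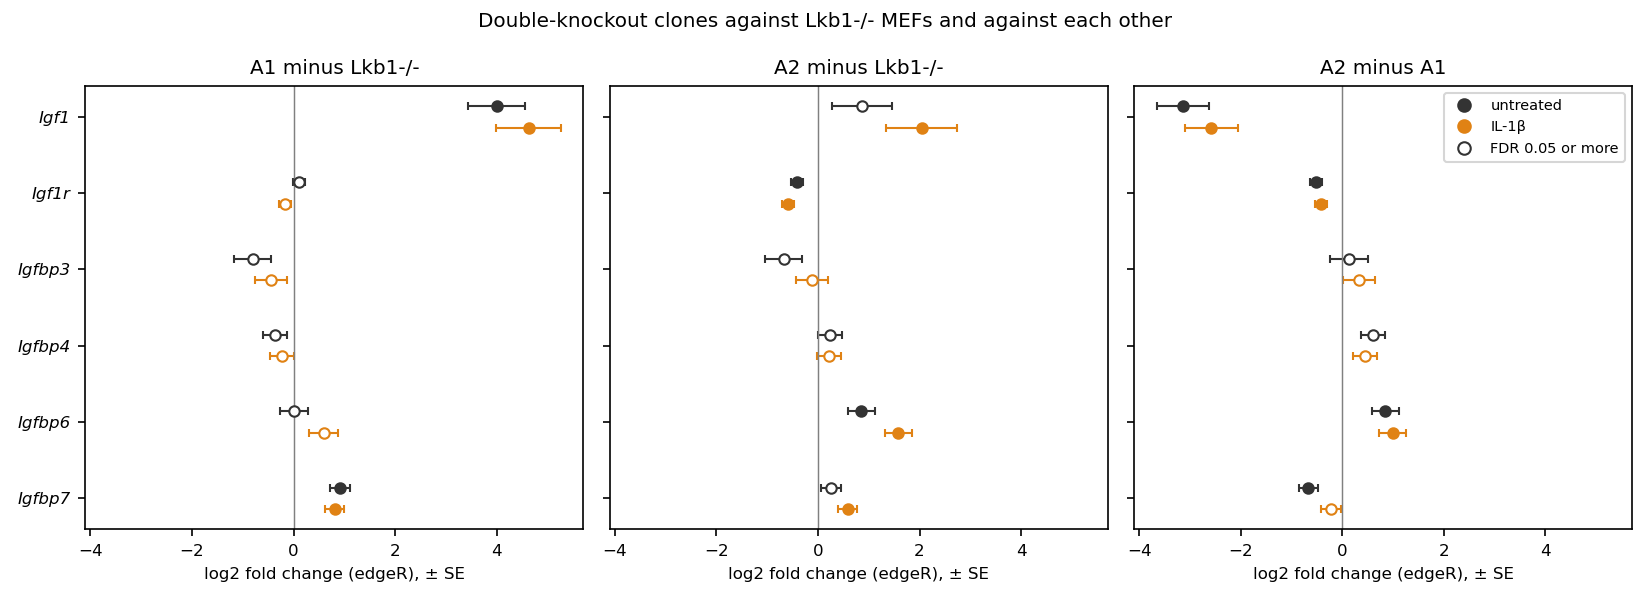
Log2 fold changes from edgeR of the 6 tested members between the clones and *Lkb1*-/- MEFs and between both clones, with bars of 1 SE. Filled circles passed an FDR of 0.05, black circles are untreated and orange circles IL-1β comparisons. *Igf1* stands apart in clone A1, *Igf1r* and *Igfbp6* moved in clone A2, and *Igfbp3* and *Igfbp4* have open circles throughout.

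Against wild-type MEFs, clone A1 had 6 of the 6 tested members called in both treatments, against 55.4% of all genes untreated and 56.9% with IL-1β. In A1 *Igf1* was higher by 5.93 (log2, SE 0.67, edgeR FDR = 1.51e-07) and *Igfbp7* by 0.99 (SE 0.20, edgeR FDR = 1.96e-04) without treatment. In untreated clone A2 the same 4 were called except *Igfbp7* (0.32, SE 0.20, edgeR FDR = 0.160), against 60.6% of all genes. With IL-1β they were called except *Igfbp6* (−0.42, SE 0.25, edgeR FDR = 0.157, but −0.72 and FDR 0.0227 without A2 replicate 1), against 60.8%. *Igf1* and *Igfbp3* were called in A2 in both treatments. *Igf1r* was lower than in wild-type MEFs by 1.08 in A1 and by 1.60 in A2 without treatment (SE 0.12 each, edgeR FDR = 1.13e-07 and 2.42e-10). These comparisons share the wild-type libraries with those of *Lkb1*-/- MEFs.

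IL-1β, the inflammatory cytokine that acts through NF-κB and MAP kinases, raised *Igfbp3* in every group without LKB1, and it was the member with the largest response. Its level went from 4.37, 4.85 and 6.26 CPM to 32.0, 48.7 and 56.0 CPM in *Lkb1*-/- MEFs, from 1.90, 2.50 and 4.41 to 19.0, 26.4 and 54.7 CPM in A1, and from 3.71, 2.43 and 3.52 to 36.5, 38.0 and 51.0 CPM in A2. No treated library overlapped with an untreated one in any of the 3. The log2 fold change was 3.14 in *Lkb1*-/- MEFs (SE 0.35, edgeR FDR = 1.05e-05), 3.50 in A1 (SE 0.37, edgeR FDR = 9.23e-06) and 3.69 in A2 (SE 0.37, edgeR FDR = 1.93e-06). In wild-type MEFs *Igfbp3* stayed at or under the floor in all 6 libraries, so a response was not detectable at this depth.

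Of the 6 tested members, 1 was called in *Lkb1*-/- MEFs, against 4.74% of all genes, 1 in A1, against 1.99%, and 2 in A2, against 5.68%. In wild-type MEFs 0 were called by edgeR, against 2.26% of all genes, and 0 by DESeq2, against 3.56%. An unadjusted p under 0.05 was reached by 0 of the 6 members and by 2001 of the 17522 genes tested. *Igf1* and *Igfbp3* had at most 5 and 2 counts in a wild-type library, so their wild-type responses could not be judged. The second member called in A2 was *Igfbp7*, which went from 33.6, 39.3 and 43.1 CPM to 55.0, 70.3 and 88.2 CPM without overlap, or 0.88 as log2 fold change (SE 0.19, edgeR FDR = 0.00704).

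Untreated and treated libraries of the same number deviated together within each genotype, and with that number as a block *Igfbp4* and *Igfbp7* were called higher with IL-1β in all 3 lines without LKB1. The block raised the share of all genes called to 14.8% in *Lkb1*-/- MEFs, 9.61% in A1 and 17.9% in A2, and to 9.3% in wild-type MEFs, where 0 members were called. For *Igfbp7* the blocked log2 fold change was 0.54 in *Lkb1*-/- MEFs (FDR 0.00685), 0.43 in A1 (FDR 0.0366) and 0.87 in A2 (FDR 3.96e-05), after 0.55 (SE 0.19, edgeR FDR = 0.141) and 0.44 (SE 0.19, edgeR FDR = 0.402) without it in the first pair. Paired by number, *Igfbp7* rose 1.31 to 1.68 times in *Lkb1*-/- MEFs, 1.23 to 1.47 times in A1 and 1.64 to 2.05 times in A2, while in wild-type MEFs the ratio was 1.04 to 1.15. *Igfbp4* had a blocked log2 fold change of 0.46 in *Lkb1*-/- MEFs (FDR 8.17e-04), 0.59 in A1 (FDR 9.55e-05) and 0.44 in A2 (FDR 9.32e-04), with 1.24 to 1.62 times the untreated level in the 9 pairs. Without the block these were 0.46, 0.60 and 0.45 (SE 0.24 each) and were not called (edgeR FDR = 0.397, 0.307 and 0.351).

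*Igf1* with IL-1β was lower than the untreated library of the same number in all 3 pairs of *Lkb1*-/- MEFs and of A1, at 0.163 to 0.672 and 0.490 to 0.780 times, and was called in neither (log2 fold change −1.37, SE 0.74, edgeR FDR = 0.419 and −0.75, SE 0.46, edgeR FDR = 0.643). Of 9 other settings, 1 called the fall of *Igf1* in *Lkb1*-/- MEFs. In A2 the ratios of *Igf1* ran from 0.342 to 1.56. The receptor moved little, between 0.874 and 1.19 times over the 12 pairs of the 4 genotypes. *Igfbp6* was lower in all 3 pairs of *Lkb1*-/- MEFs, at 0.530 to 0.792 times (log2 fold change −0.55, SE 0.28, edgeR FDR = 0.389). In the other genotypes its ratios ran from 0.731 to 1.78, and it was not called in any genotype.

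**Figure D4:**
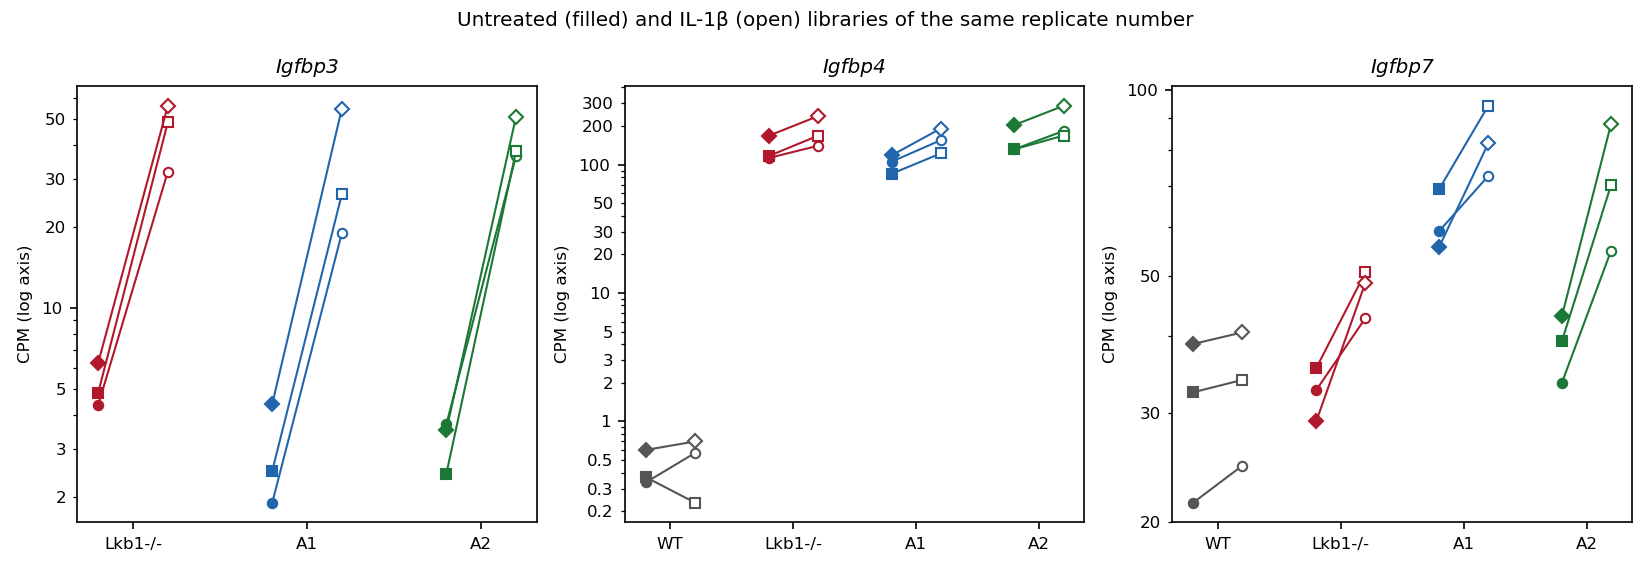
CPM on a log axis of *Igfbp3*, *Igfbp4* and *Igfbp7* without (filled) and with IL-1β (open), lines joining libraries of the same replicate number. Circles, squares and diamonds are replicates 1, 2 and 3. Every line without LKB1 rises, steepest for *Igfbp3*, and wild-type *Igfbp3*, at or under 2 counts in all libraries, is left out.

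Whether the IL-1β responses differed between genotypes was tested as a difference of responses. The unblocked test called 0 of the 6 members in any of the 3 differences, against 0.245% of all genes for *Lkb1*-/- minus wild type, 0.0285% for A1 minus *Lkb1*-/- and 0% for A2 minus *Lkb1*-/- (985, 433 and 388 genes at an unadjusted p under 0.05). Of the members, 0 had an unadjusted p under 0.05, and 1 was called in the first difference without the filter on low counts, where 0.943% of all genes were called. In the first difference *Igfbp3* and *Igf1* could not be judged, since their wild-type libraries had at most 2 and 5 counts (SE 1.29 and 1.30). For *Igfbp3* the difference was 0.36 in A1 (SE 0.48, edgeR FDR = 1.00) and 0.55 in A2 (SE 0.48, edgeR FDR = 1.00). With the block within each genotype 2 members were called in *Lkb1*-/- minus wild type, against 5.72% of all genes. *Igfbp7* responded more in *Lkb1*-/- MEFs by 0.44 (log2, FDR 0.00410), and *Igf1r* by 0.22 (FDR 0.0284). In A1 minus *Lkb1*-/- *Igf1r* was called at −0.28 (FDR 0.0139), against 1.52% of all genes, and in A2 minus *Lkb1*-/- none of the 6 was, against 1.04%. With 1 block across genotypes 0 members were called in any of the 3 differences, against 1.77%, 0.205% and 0.103% of all genes.

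Of 39 other genes of the pathway, 34 passed the filter. *Igf2*, *Insrr*, *Igfbp1*, *Igfbpl1* and *Igfals* did not, and *Igfbp1*, which lies 3539 bases from *Igfbp3*, had 0 counts in all 24 libraries. The growth factor *Igf2* had at most 1 count in a library, and *Igf1* reached at most 6.86 CPM, in clone A1. Untreated *Lkb1*-/- MEFs had 10 of the 34 called higher and 9 lower than wild-type MEFs (median log2 fold change 0.05, beside 0.04 over all tested genes), that is 19 of 34 where 55.9% of all genes were called. Against *Lkb1*-/- MEFs clone A1 had 10 higher and 9 lower (median −0.01 beside 0.02, with 35.3% of all genes called), and A2 8 higher and 8 lower (median 0.04 beside 0.02, with 32.3% called). IL-1β called 2 of the 34 in wild-type MEFs (2.26% of all genes), 4 in *Lkb1*-/- MEFs (4.74%), 3 in A1 (1.99%) and 3 in A2 (5.68%).

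Among proteases and their inhibitors, genes that act on IGFBP4 differed between the lines. *Pappa*, the protease of IGFBP4, was at 0.104 ± 0.0519 CPM in untreated wild-type and 4.09 ± 0.475 CPM in *Lkb1*-/- MEFs (log2 fold change 5.27, SE 0.36, edgeR FDR = 5.13e-11). It reached 10 counts in 0 of the 6 wild-type libraries and in all 18 others, so it passed the filter only through the groups where it was higher. Against *Lkb1*-/- MEFs the clones went opposite ways, with a rise of 0.78 in A1 to 6.997 ± 1.18 CPM (SE 0.23, edgeR FDR = 0.0112) and a fall by 1.15 in A2 to 1.84 ± 0.140 CPM (log2, SE 0.24, edgeR FDR = 9.29e-04). *Stc1*, a stanniocalcin, rose from 1.25 ± 0.791 to 42.3 ± 3.28 CPM (5.11, SE 0.34, edgeR FDR = 3.72e-11) and was lower in both clones, by 1.01 in A1 (SE 0.26, edgeR FDR = 0.00441) and by 1.10 in A2 (SE 0.26, edgeR FDR = 0.00275). *Stc2*, the other stanniocalcin, fell from 9.26 ± 2.18 to 0.186 ± 0.161 CPM (−5.62, SE 0.36, edgeR FDR = 2.13e-11) and was at 2.06 ± 0.344 CPM in A1, a rise of 3.45 (SE 0.37, edgeR FDR = 3.70e-07). None of these groups overlapped in the libraries compared. *Htra1*, a serine protease known to cut IGFBP5, rose by 1.06 in A1 against *Lkb1*-/- MEFs (SE 0.13, edgeR FDR = 2.84e-06), from 275 ± 22.2 to 575 ± 90.9 CPM. At the level of RNA, *Igfbp4* and the gene of its protease were both higher without LKB1, and the stanniocalcins went in opposite directions.

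In the list of receptors and adaptors, 2 genes had a called log2 fold change beyond 1 in size between untreated *Lkb1*-/- and wild-type MEFs, both upward. *Grb14*, an adaptor that binds and restrains the insulin receptor, went from 1.03 ± 0.352 to 10.9 ± 1.29 CPM (3.40, SE 0.22, edgeR FDR = 1.92e-11). *Sh2b2*, an adaptor of the same receptor family, went from 2.21 ± 0.0838 to 13.8 ± 1.70 CPM (2.64, SE 0.11, edgeR FDR = 1.86e-14). Of the 5 genes of the growth hormone input list, 1 (*Stat5a*) was called higher and 3 lower in untreated *Lkb1*-/- MEFs, where 55.9% of all genes were called. The 3 lower genes were singled out after their values were seen. The growth hormone receptor *Ghr* fell from 53.7 ± 3.51 to 21.3 ± 2.04 CPM (−1.34, SE 0.23, edgeR FDR = 3.25e-05), with 40.0 ± 4.93 CPM in A1 and 37.9 ± 11.5 CPM in A2 (SD, n = 3), both called higher than in *Lkb1*-/- MEFs (edgeR FDR = 0.00311 and 0.00687). *Stat5b*, a transcription factor activated downstream of that receptor, fell from 63.0 ± 3.45 to 27.7 ± 2.73 CPM (−1.19, SE 0.16, edgeR FDR = 1.69e-06). *Socs2*, the inhibitor of growth hormone signaling, fell from 35.4 ± 0.875 to 0.604 ± 0.111 CPM (−5.87, SE 0.28, edgeR FDR = 1.35e-13) and was higher than in *Lkb1*-/- MEFs by 1.33 in A1 (SE 0.30, edgeR FDR = 0.00138) and by 2.62 in A2 (SE 0.28, edgeR FDR = 3.82e-07).

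**Figure D5:**
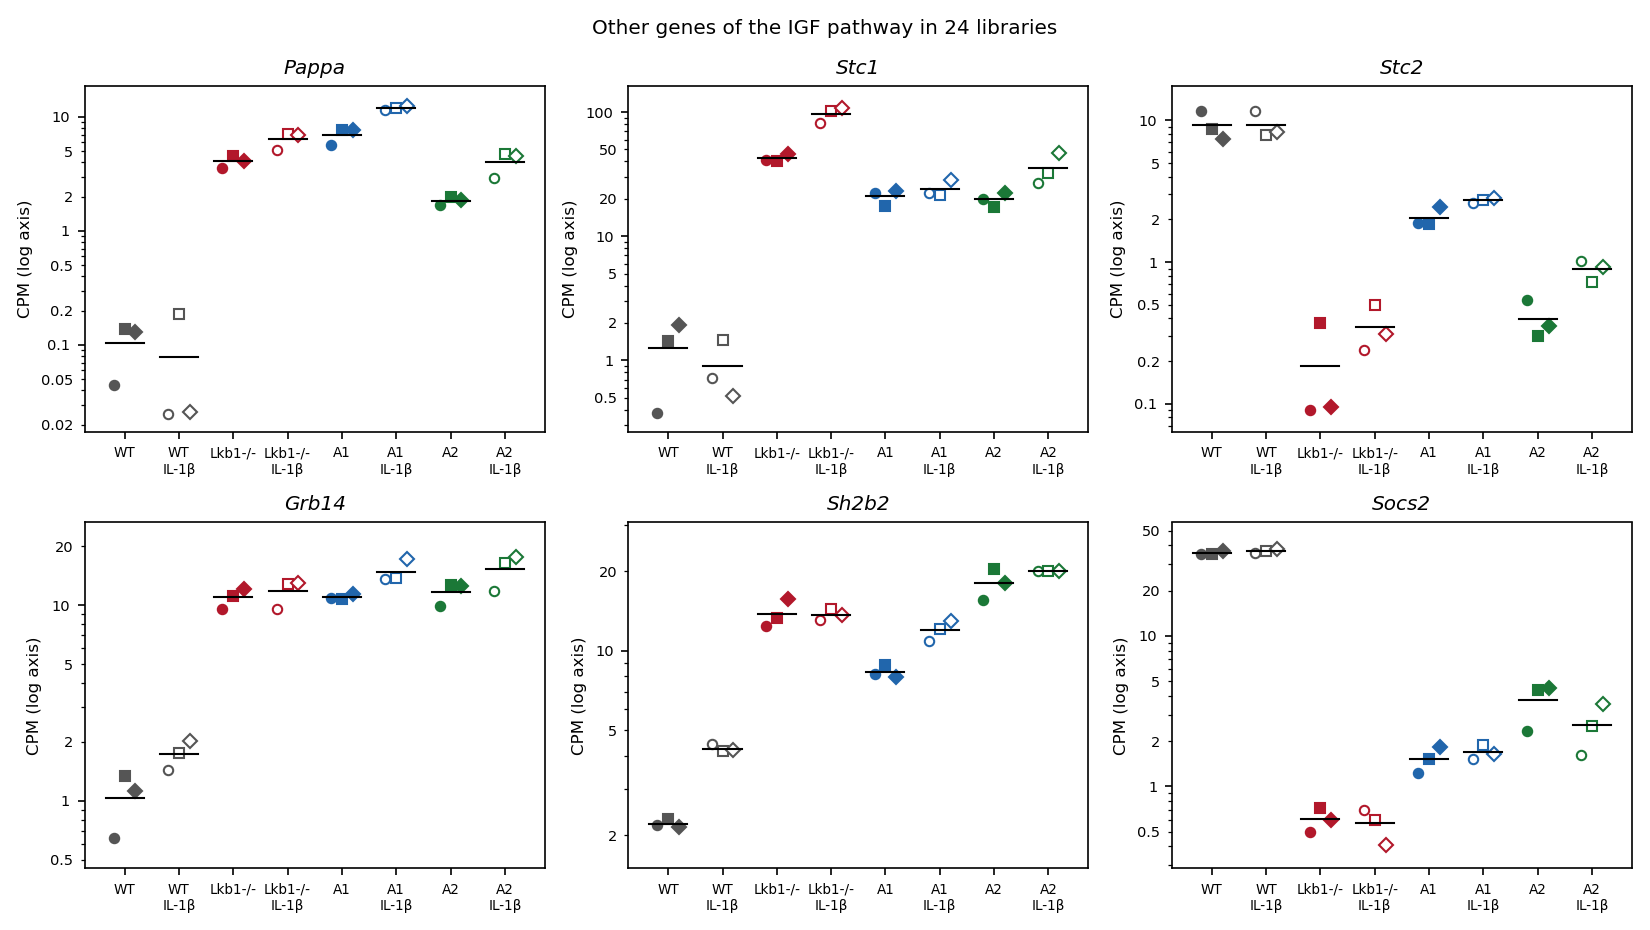
CPM on a log axis of 6 other genes of the pathway in all 24 libraries, with symbols as in the plot of the members. *Pappa*, *Stc1*, *Grb14* and *Sh2b2* are higher and *Stc2* and *Socs2* lower in every group without LKB1 than in both wild-type groups.

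Neighbors were counted as a description. Of 20 tested genes within 500 kb of *Igfbp4*, 6 were called higher and 4 lower in untreated *Lkb1*-/- MEFs (median log2 fold change −0.01, highest 1.45), where 55.9% of all genes were called. Around *Igfbp6*, which fell, 14 of 22 were called higher and 0 lower, with a median of 0.55. Around *Igf1r*, which fell, 3 of 5 were lower and 0 higher. *Igfbp3* had 1 tested neighbor, which was not called. Of the 6 tested neighbors of *Igf1*, 1 was higher and 4 lower (median −0.59, beside −0.44 over the 814 tested genes of chromosome 10). In untreated A1 against *Lkb1*-/- MEFs, where *Igf1* rose, 4 of these 6 were higher and 0 lower (median 0.50), with 35.3% of all genes called. In untreated A2 against *Lkb1*-/- MEFs 2 were higher and 0 lower (median 0.32), with 32.3% of all genes called.

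Some members followed the replicate number. Replicate 1 had the lowest level of *Igf1r* in 8 of the 8 groups and replicate 3 the highest level of *Igfbp4* in 8 of 8. For *Igf1*, replicate 1 was the lowest or tied for it in each group. *Igfbp6* had replicate 1 highest in 3 groups and lowest in 2, and *Igfbp7* had it lowest in 6. With only replicates 2 and 3 of each group, an alternative chosen after seeing the data, the IL-1β response of *Igfbp7* passed the threshold in *Lkb1*-/- MEFs (0.62, FDR 0.0137), *Igfbp6* was lower in A2 than in wild-type MEFs with IL-1β (−0.68, FDR 0.0258) and its untreated call between the clones was lost (0.64, FDR 0.0694).

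By the correlation of the 8 group means of log2 CPM, searched over 9369 genes with a mean log2 CPM above 3, the genes most like each member were *Pclaf* (r = 0.993), *Rnf214* and *Wdr82* for *Igf1*, and *G3bp2* (r = 0.994), *Gm15536* and *Rab6a* for *Igf1r*. For *Igfbp3* they were *Mthfd2l* (r = 0.996), *Cfap69* and *Trp53rka*, and for *Igfbp4* *Evc2* (r = 0.999), *Gas7* and *Uck1*. *Igfbp6* was most like *Nln* (r = 0.986), *Faxc* and *Exoc2*, and *Igfbp7* most like *Utp23* (r = 0.962), *Arl6ip5* and *Gpn1*. The 8 means share lines and depth, and a high value over so few points is a description only.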

How the data were processed

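RNA was sequenced from 24 MEF libraries in 8 groups of 3, assigned by their labels. The deposited values were raw counts of read pairs per gene from STAR 2.7.8a after Trim Galore 0.6.0, made by the authors on GRCm38 with a GENCODE annotation, with 1 column per strand setting. The second-strand column was used, since it held 95.5 to 96.0% of the counts on both strands. Pairs on no gene (26.7 to 34.4%) stayed out of library sizes. The library kit is given differently in the sources used here.

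Genes were kept by filterByExpr (minimum count 10, minimum total 15), scaled by TMM and fitted over all 24 libraries with edgeR 4.0.16 quasi-likelihood tests in R 4.3.3, with FDR by the Benjamini-Hochberg method over 17522 genes and a threshold of 0.05. The fit was tested on simulated data. Levels between genes were CPM per kilobase of exon. Folds against 0 counts used a floor of 3 counts per library, and intervals and floors cover counting error only. Same-numbered libraries correlated at 0.0355 to 0.589 in their deviations from group means (84 pairs), all over 0.1 in the comparisons where a blocked value is given in the results. Alternatives were unstranded counts, 2 other scalings, 2 other filters, edgeR's newer method, DESeq2 1.42.0, the block, a fit of the compared groups, leaving out each library and, added after seeing the data, only replicates 2 and 3.

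The members and lists were chosen with earlier results of these data known. Other genes named are the receptor, adaptor, protease and inhibitor genes that passed the threshold with a log2 fold change beyond 1 in size in *Lkb1*-/- against wild-type MEFs or in a clone against *Lkb1*-/- MEFs, untreated, at most 4 per list and comparison, and up to 3 genes most like each member. *Ghr*, *Stat5b* and *Socs2* were singled out after their values were seen, and *Stat5a* is named beside them as the gene of that list called the other way. The closing section also names the pathway genes called in a difference of IL-1β responses. Of the pathway genes called in the differences of IL-1β responses, 1 is not reported here.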

Additional observations from a re-analysis of the deposited data

Results flagged for a closer look

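The response to IL-1β was tested for a difference between genotypes in the members and in the other genes of the pathway. In the edgeR fit of all 24 libraries without a block it differed for *Sh2b2* alone among them, which went from 2.21 ± 0.0838 to 4.25 ± 0.143 CPM in wild-type MEFs and from 13.8 ± 1.70 to 13.7 ± 0.663 CPM in *Lkb1*-/- MEFs (SD, n = 3), a difference of −0.95 on the log2 scale (edgeR FDR = 0.00336).

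When replicate numbers were blocked inside every genotype, the response of *Igfbp7* was larger in *Lkb1*-/- than in wild-type MEFs by 0.44 (edgeR FDR = 0.00410) and that of *Igf1r* by 0.22 (edgeR FDR = 0.0284). *Igf1r* rose 1.02 to 1.19 times by number in *Lkb1*-/- MEFs and was at 0.907 to 0.999 times in wild-type MEFs, although neither response was called alone. In clone A1 it was at 0.874 to 0.918 times, and the difference from *Lkb1*-/- MEFs was −0.28 (edgeR FDR = 0.0139). In the fit of all 24 libraries without the block, and with 1 block across genotypes, none of these differences in *Igfbp7* and *Igf1r* was called. That in *Igfbp7* was called when genes with low counts were not removed (0.48, edgeR FDR = 0.0264).

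Of the 34 other pathway genes tested, the same block called 10 in *Lkb1*-/- minus wild type, against 5.72% of all genes, 4 in A1 minus *Lkb1*-/-, against 1.52%, and 1 in A2 minus *Lkb1*-/-, against 1.04%. Among them beside *Sh2b2*, the response was larger in *Lkb1*-/- than in wild-type MEFs for *Stc1* (1.62), the growth hormone receptor *Ghr* (0.65), *Foxo3* (0.35), *Pik3r1* (0.33) and *Jak2* (0.27), and smaller or more negative for the protease *Adamts1* (−1.03), *Grb14* (−0.64) and *Irs1* (−0.46), as log2 differences with edgeR FDR values from 7.65e-10 to 0.0359. Between A1 and *Lkb1*-/- MEFs the difference was −0.99 for *Stc1*, 0.63 for *Adamts1*, 0.53 for *Sh2b2* and 0.39 for *Pik3r1* (edgeR FDR 8.18e-06 to 0.0245), and between A2 and *Lkb1*-/- MEFs it was 0.31 for *Adamts1* (edgeR FDR = 0.0160). Apart from *Sh2b2* in *Lkb1*-/- minus wild type, none of these was called in the fit of all 24 libraries without a block. Other settings without the block inside genotypes called some of them. Those in *Lkb1*-/- minus wild type were *Adamts1* and *Ghr* with genes of low counts kept (edgeR FDR = 1.03e-14 and 9.29e-05) and in a fit of the compared groups (0.00370 and 0.0397), *Adamts1* with 1 block across genotypes (0.00792), *Stc1* with those genes kept (3.60e-14) and without untreated wild-type replicate 1 (0.0414), and *Pik3r1* and *Jak2* with only replicates 2 and 3 (0.0384 and 0.0491). In A1 minus *Lkb1*-/- they were *Adamts1* and *Stc1* with those genes kept (2.46e-05 and 9.82e-09).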

How the results depend on the processing

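Of 100 results for single members, 53 were called. Over the alternatives 1481 values kept direction and side of the threshold, 33 lost a call, 52 gained one and 33 turned sign. The filter of 10 counts in every library, which leaves *Igf1* and *Igfbp3* untested, took the members called in untreated *Lkb1*-/- against wild-type MEFs from 5 to 3 (61.5% of all genes), in A2 against the wild type from 5 to 3 in both treatments (66% and 66.3%), in A1 against *Lkb1*-/- MEFs from 2 to 1 in both treatments (43.6% and 45%), and in the IL-1β responses to 0 in *Lkb1*-/- MEFs (6.32%), 0 in A1 (3.03%) and 1 in A2 (8.43%). Without a filter, which also tests *Igfbp2* and *Igfbp5*, untreated A1 and A2 against *Lkb1*-/- MEFs had 4 each (16.4% and 15.1% of the 36796 genes then tested), with IL-1β A1 had 5 (16.9%), A2 against A1 with IL-1β had 5 (14.3%), the IL-1β responses had 4 in *Lkb1*-/- MEFs (3.88%) and 3 in A1 (2.47%), and the response difference *Lkb1*-/- minus wild type had 1 (0.943%). A fit of the compared groups gave 2 for the response of *Lkb1*-/- MEFs (5.57%). The cause was not tested for the last.

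The replicate block gave 4 for untreated A1 and A2 against *Lkb1*-/- MEFs (48.1% and 45.9% of all genes), 4 for A1 with IL-1β (49.1%), and 3 for the IL-1β responses of *Lkb1*-/- MEFs (14.8%) and A1 (9.61%). Within each genotype the block gave 2 and 1 for the response differences of *Lkb1*-/- minus wild type (5.72%) and A1 minus *Lkb1*-/- (1.52%). In untreated A1 against *Lkb1*-/- MEFs, where same-numbered libraries share only a number (lowest correlation 0.056), the block called *Igfbp3* (−0.84, FDR 0.00520) and *Igfbp4* (−0.35, FDR 0.00249). It likewise called *Igfbp4* in untreated A2 against A1 (0.58, FDR 1.29e-05) and *Igfbp7* in untreated A2 against the wild type (0.34, FDR 0.0285). Over all genes it moved the IL-1β calls from 396 to 1629 in wild-type MEFs, 831 to 2601 in *Lkb1*-/- MEFs, 348 to 1684 in A1 and 995 to 3133 in A2.

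Leaving out 1 library gave 0 to 2 members called in untreated A2 against *Lkb1*-/- MEFs (25.7 to 33.8% of all genes), 2 to 4 with IL-1β (27.1 to 32.4%), and 2 to 5 in untreated A2 against A1 (26.4 to 34.2%). Log2 fold changes near 0 turned sign in such fits, and none of these was called. For A2 with IL-1β against untreated, *Igf1* ranged from −1.12 to 0.30, *Igf1r* from −0.16 to 0.076 and *Igfbp6* from −0.10 to 0.32. *Igfbp6* ranged from −0.20 to 0.082 in the wild-type response and from −0.30 to 0.26 in that of A1, *Igfbp4* from −0.13 to 0.56 and *Igfbp7* from −0.11 to 0.28 in the wild-type response. *Igfbp3* ranged from −0.10 to 0.55 in untreated A2 against A1, from −0.33 to 0.065 in A2 against *Lkb1*-/- MEFs with IL-1β, and from −0.18 to 0.78 in the response difference of A1. *Igfbp4* with IL-1β ranged from −0.38 to 0.023 in A1 and from −0.050 to 0.48 in A2 against *Lkb1*-/- MEFs. *Igfbp6* ranged from −0.22 to 0.13 and *Grb14* from −0.060 to 0.096 in untreated A1 against *Lkb1*-/- MEFs, and *Igfbp7* from −0.14 to 0.21 in untreated *Lkb1*-/- against wild-type MEFs, where unstranded counts gave −0.019.

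In untreated A1 against *Lkb1*-/- MEFs *Igfbp6* was −0.033 with unstranded counts, −0.0033 with DESeq2 size factors, −0.0085 without a filter, −0.0085 with 10 counts in every library, −0.032 in the fit of the compared groups and −0.0025 with DESeq2, and *Grb14* was −0.0018, −0.0052, −0.0041, −0.028 and −0.0018 under the last 5 of these. With only replicates 2 and 3, chosen after seeing the data, 2 members were called in the IL-1β response of *Lkb1*-/- MEFs (8.79% of all genes), and uncalled values turned sign for *Igfbp3* in untreated A2 against A1 (−0.22), *Igfbp7* in untreated *Lkb1*-/- against wild-type MEFs (−0.14), *Grb14* in untreated A1 against *Lkb1*-/- MEFs (−0.072), and the responses of *Igfbp4* in wild-type MEFs (−0.070) and *Igfbp6* in A1 (−0.43) and A2 (−0.026). Upper quartile scaling moved the median of all genes by 0.11 in A1 and 0.10 in *Lkb1*-/- against wild-type MEFs with IL-1β, and in A2 against untreated wild-type MEFs it ended the call of *Igfbp6* (−0.58, FDR 0.0580). Depth limits *Igfbp2*, *Igfbp5* and, outside clone A1, *Igf1*.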
